A study of Mus musculus with 3 samples.

Results

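Genes of cholesterol and fatty acid synthesis were followed in melan-a NRAS61K cells, immortalised mouse melanocytes with the NRAS61K oncogene, after 6, 14 and 28 days with doxycycline at 1 µg/ml. The list held 32 genes, chosen by name for their place in these pathways, with earlier results of these data known. Every probe set annotated to 1 of them alone was taken. This gave 72 of the 45101 probe sets on the arrays and 31 of the 32 genes. Acat2, the cytosolic thiolase that starts the mevalonate pathway, had no probe set with it as the only gene symbol and is not analysed here. Each time point had 1 array, so every difference describes 2 arrays, with no p-value and no estimate of the spread between cultures. All 3 groups carried the oncogene and received doxycycline, in medium with dialysed fetal calf serum. The labels do not say what doxycycline controls in this line or how many clones it holds, and an untreated array was not used here. The series text counts 4 samples and its treatment protocol also names 10 days, while 3 arrays were analysed here. In bulk RNA, fewer cells of a type and less RNA per cell cannot be told apart.

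Cells build cholesterol from acetyl-CoA through mevalonate and the isoprenoid farnesyl diphosphate, which is joined to squalene and closed into sterols. Farnesyl diphosphate is also the lipid that anchors Ras proteins to membranes. The transcription factors SREBP-1 and SREBP-2, made from Srebf1 and Srebf2, switch on most genes of both pathways when membrane sterol is low. The escort protein SCAP carries them to the Golgi for cleavage, and the INSIG proteins hold SCAP in the endoplasmic reticulum when sterol is plentiful.

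The deposited values are on a log scale read as base 2, in which a difference of 1 is 2-fold and one of 0.585 is 1.5-fold. Values were quantile normalised by the authors, so a difference is relative to the other genes on the arrays. The main probe set of a gene is its brightest on average. The background was set at the 90th percentile of 104 probe sets for genes silent in pigment cells and came to 22.93, 22.74 and 22.86 at days 6, 14 and 28. All 31 members lay above it on every array by their main probe set. Of the 72 member probe sets, 57 were above it on all arrays and 10 on none. Among 4662 genes with several probe sets above the background, differences from the same gene scattered with an SD of 0.31 (day 28 against day 6), 0.30 (day 14 against day 6) or 0.23 (day 28 against day 14). This spread covers measurement and not culture.

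Of 10 melanocyte markers, 8, 7 and 7 were above the background at days 6, 14 and 28, and the log2 of their summed level was 28.87, 31.27 and 30.30. Tyr, the enzyme that starts melanin synthesis, and Kit were below it on all 3 arrays, so these defining markers were not seen. Pmel, with 23.07, 23.38 and 23.05, was counted as above the background but lay near it at days 6 and 28. At day 14 against day 6, 7 of the 8 markers above the background on either array were higher. Dct, an enzyme of melanin synthesis, had the largest difference, 5.34, while Ednrb differed by -1.45 and fell below the background. At day 28 against day 14, 6 of 7 were lower, Tyrp1 the most at -2.21. Proliferation genes were lower on the later arrays, with 19 of 19 above the background at each time and a summed level of 32.55, 31.82 and 31.50. For RNA quality, the 3' minus 5' difference of the Actb control probe sets was 0.58, 0.76 and 0.75, and that of Gapdh was -0.24, -0.10 and -0.09. Controls for added poly-A RNA averaged 23.86, 24.07 and 24.30. The part of these 4 measures in the results below was not tested.

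Between day 28 and day 6 the synthesis genes were lower almost throughout. On the main probe sets 29 of 31 members had a negative difference, and the median was -0.56, beside 0.02 over the 11484 genes described. At least 2-fold lower were 5 members, Idi1, Fdps, Cyp51, Msmo1 and Stard4, beside 3.99% of all genes, and 0 members were 2-fold higher, beside 6.66%. At the 1.5-fold level 13 members were lower, beside 12.1% of all genes, and only Insig2 was higher on its main probe set, beside 16.0%. With each array shifted to equal reference genes, which moved every gene by -0.21, 22 members were 1.5-fold lower, beside 21.5% of all genes, and 0 higher, beside 10.1%. Over all genes that shift gave 792 genes 2-fold lower and 526 higher, against 458 and 765 as deposited.

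**Figure D1:**
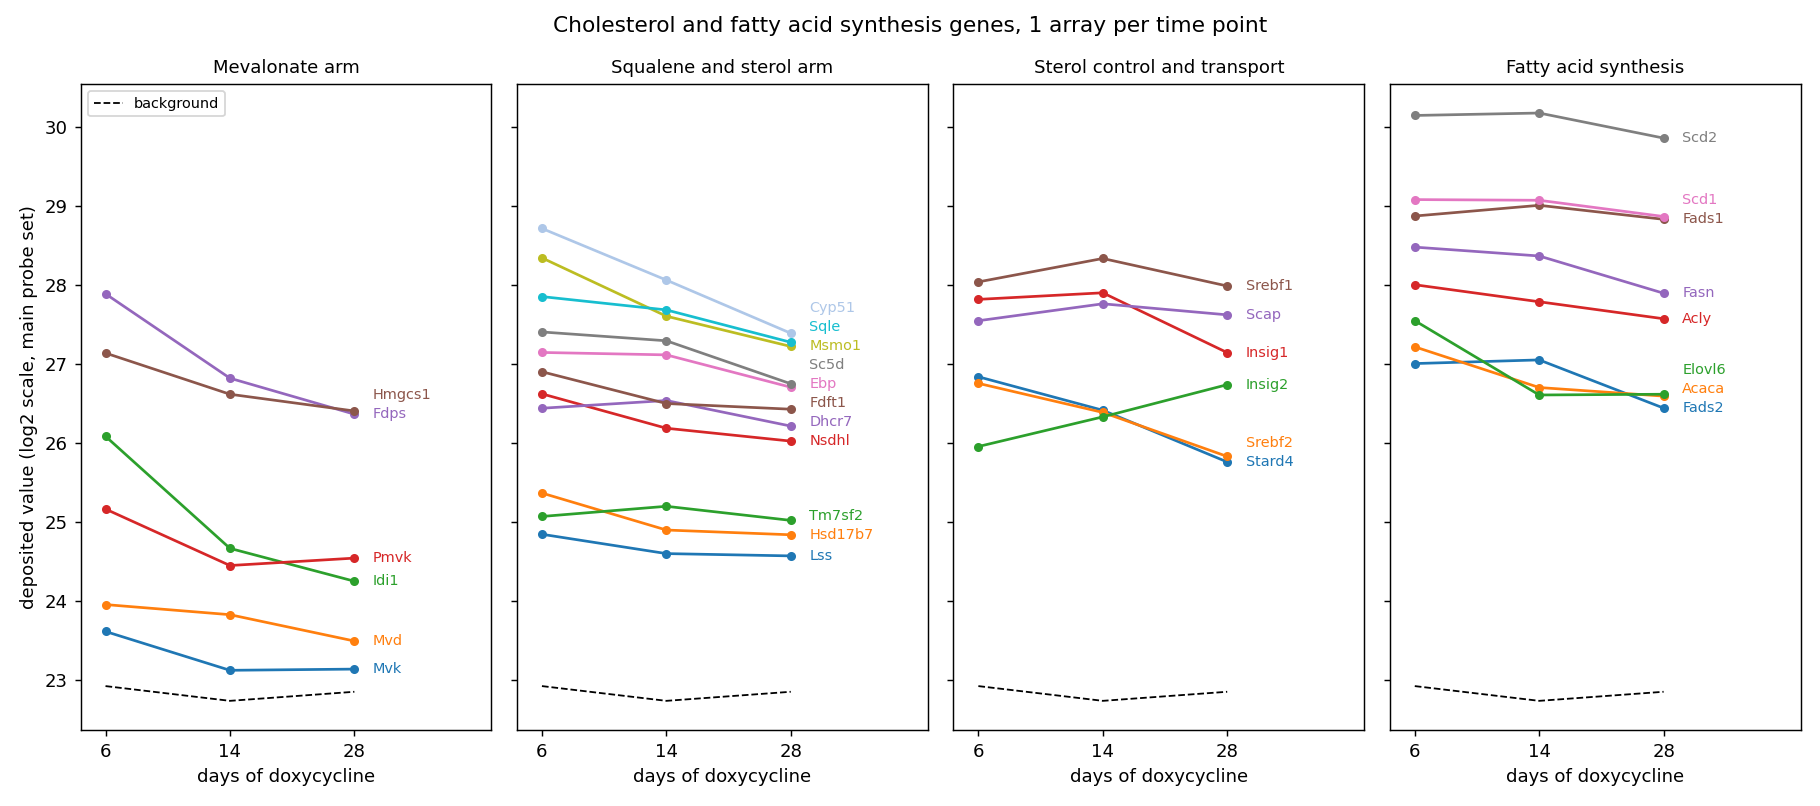
Deposited value on the log2 scale (vertical axis) of the main probe set of each of 31 members at 6, 14 and 28 days (horizontal axis, evenly spaced), in 4 panels by role, with 1 array per point and the background as a dashed line. Lines are to be followed within a gene, since levels of different probe sets are not comparable; Idi1 goes through 26.09, 24.67 and 24.26, and Insig2 is the gene with a higher value at each later time.

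In the mevalonate arm all 6 measured genes were lower at day 28, with a median of -0.68. Idi1, the isomerase that makes the reactive isoprenoid dimethylallyl diphosphate, had values of 26.09, 24.67 and 24.26 at days 6, 14 and 28. It was 3.57-fold lower at day 28 than at day 6 and stood 42nd from the lowest of the 11484 differences. Its other probe set gave -1.67, close to the -1.83 of the main one.

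Fdps, which condenses isoprenoid units into farnesyl diphosphate, had 27.89, 26.83 and 26.37. It was 2.87-fold lower at day 28 than at day 6, and its second probe set lay below the background on all arrays. Hmgcs1, which makes HMG-CoA, had 27.14, 26.62 and 26.41, a 1.66-fold lower value at day 28. Its 3 other probe sets above the background gave -1.01 to -0.62, so all 4 were lower.

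The mevalonate kinase gene Mvk (23.62, 23.13 and 23.14) and the phosphomevalonate kinase gene Pmvk (25.17, 24.45 and 24.55) were lowest at day 14. Mvd, the decarboxylase that follows them, had 23.96, 23.83 and 23.50. At day 28 against day 6 these 3 genes differed by -0.48, -0.62 and -0.46. Mvk and Mvd lay near the background, and the second probe set of each was below it on some array.

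In the squalene and sterol arm all 11 genes were lower at day 28 than at day 6, with a median of -0.53. Cyp51, the cytochrome P450 that demethylates lanosterol, had 28.72, 28.07 and 27.40 and was 2.51-fold lower. A second probe set of Cyp51 gave -1.34, against -1.33 on the main one. Msmo1, the methylsterol oxygenase that acts after it, had 28.35, 27.61 and 27.23 and was 2.18-fold lower.

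The genes that commit farnesyl diphosphate to sterols differed less. Fdft1, squalene synthase, had 26.91, 26.51 and 26.43, and Sqle, the oxygen-dependent squalene epoxidase, had 27.86, 27.69 and 27.28. They differed by -0.47 and -0.58 at day 28 against day 6, and the other probe set of Fdft1 above the background gave -0.72. Lss, which closes the sterol rings, depended on the probe set: the main one had 24.85, 24.61 and 24.58, a difference of -0.27, while the other had 24.99, 23.80 and 23.47, a difference of -1.52. This was the widest disagreement between probe sets of a member, at 1.25.

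On their main probe sets Nsdhl, Hsd17b7, Sc5d and Ebp, genes of later enzymes, lay between -0.66 and -0.44. Nsdhl, a dehydrogenase that removes the methyl groups at carbon C-4, and Hsd17b7, the reductase that completes that step, differed by -0.60 and -0.53. Other probe sets of Hsd17b7 above the background gave -0.77 and -0.55. Sc5d, the desaturase near the end, had 27.41, 27.30 and 26.76 and a difference of -0.66, but its 2 other probe sets gave -0.53 and 0.22. Ebp, a sterol isomerase, differed by -0.44.

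The sterol reductase genes Dhcr7 and Tm7sf2 were close to their day 6 level as deposited. Dhcr7, which makes cholesterol from its last precursor in one branch, had 26.45, 26.54 and 26.22. Tm7sf2, a reductase that acts just after Cyp51, had 25.08, 25.20 and 25.03. Their differences of -0.23 and -0.05 were within the 0.31 spread between probe sets. With equal reference genes they were -0.44, outside that spread, and -0.26.

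**Figure D2:**
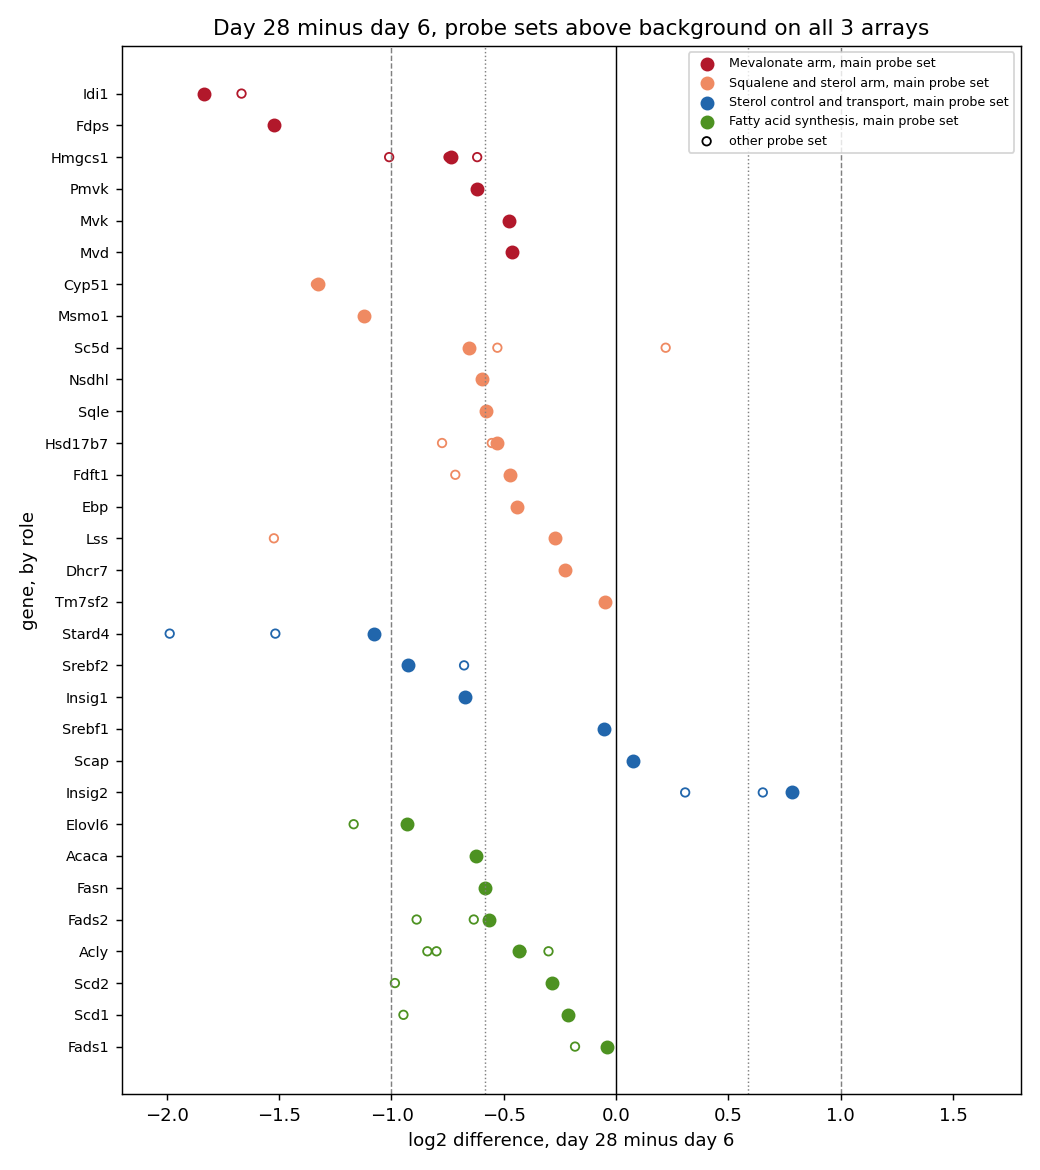
Log2 difference of day 28 minus day 6 (horizontal axis) for each member (vertical axis, grouped by role), with the main probe set as a filled point and other probe sets above the background on all 3 arrays as open points; dotted lines mark 1.5-fold and dashed lines 2-fold. Nearly all points lie left of 0, the 3 of Insig2 lie right of it at 0.31 to 0.78, and Lss has 1 point at -0.27 and 1 at -1.52.

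The genes of sterol control split. Srebf2, the source of SREBP-2, had 26.76, 26.39 and 25.84 and was 1.90-fold lower at day 28 than at day 6, with -0.68 on its other probe set. Srebf1, the source of SREBP-1, had 28.05, 28.34 and 27.99, a difference of -0.05. Scap had 27.55, 27.77 and 27.63, a difference of 0.07 that was negative under both other scalings.

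The 2 Insig genes ran in opposite directions. Insig1, itself a target of SREBP in other cells, had 27.82, 27.91 and 27.15 and was 1.60-fold lower at day 28 than at day 6. Insig2 had 25.96, 26.34 and 26.74 and was 1.72-fold higher. All 3 probe sets of Insig2 were higher, by 0.31 to 0.78. With equal reference genes the Insig2 difference was 0.57, still positive but under 1.5-fold.

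Stard4, which carries sterol between membranes, had 26.84, 26.42 and 25.77 and was 2.11-fold lower. Its other probe sets gave -1.52 and -1.99, so the main one showed the smallest difference of the 3. The dimmest of them had 24.97, 23.67 and 22.98, and its day 28 value lay near the background of 22.86.

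Promoter letters are shown for 6 genes: Idi1, Cyp51 and Msmo1, among the 5 members that were 2-fold lower, Hmgcs1, the 1 member with a match to the sterol response element, and the Insig pair with opposite differences. Each line is the 250 bases before a start of the gene in RefSeq, build GRCm38.p6, read 5′ to 3′ on the gene's strand. Insig2 has several starts there, and 1 is shown. Capitals mark CCAAT, the box read by the factor NF-Y, a known partner of SREBP, or its reverse complement ATTGG. In Hmgcs1 they also mark TCACCCCAC, a match to TCACNCCAC, the core of the sterol response element.
Idi1, chr13:8885356-8885605, plus strand: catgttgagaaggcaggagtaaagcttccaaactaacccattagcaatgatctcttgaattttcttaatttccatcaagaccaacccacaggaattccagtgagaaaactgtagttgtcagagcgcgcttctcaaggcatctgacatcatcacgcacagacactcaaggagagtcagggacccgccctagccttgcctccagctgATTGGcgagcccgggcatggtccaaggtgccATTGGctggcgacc
Cyp51, chr5:4104698-4104947, minus strand: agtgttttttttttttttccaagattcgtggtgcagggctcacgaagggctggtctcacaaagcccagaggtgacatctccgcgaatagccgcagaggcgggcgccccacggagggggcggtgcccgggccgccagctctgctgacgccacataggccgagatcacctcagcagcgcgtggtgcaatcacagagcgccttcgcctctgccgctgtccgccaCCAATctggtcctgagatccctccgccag
Msmo1, chr8:64733579-64733828, minus strand: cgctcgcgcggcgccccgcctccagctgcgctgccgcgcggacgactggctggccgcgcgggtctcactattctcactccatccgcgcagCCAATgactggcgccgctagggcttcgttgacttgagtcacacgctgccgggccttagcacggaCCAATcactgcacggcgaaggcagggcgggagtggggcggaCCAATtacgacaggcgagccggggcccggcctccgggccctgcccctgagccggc
Hmgcs1, chr13:119690101-119690350, plus strand: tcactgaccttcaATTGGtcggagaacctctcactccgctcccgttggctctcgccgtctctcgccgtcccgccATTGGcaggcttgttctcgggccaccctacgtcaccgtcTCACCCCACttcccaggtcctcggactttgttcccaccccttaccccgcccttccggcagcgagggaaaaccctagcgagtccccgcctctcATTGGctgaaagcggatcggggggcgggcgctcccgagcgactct
Insig1, chr5:28071162-28071411, plus strand: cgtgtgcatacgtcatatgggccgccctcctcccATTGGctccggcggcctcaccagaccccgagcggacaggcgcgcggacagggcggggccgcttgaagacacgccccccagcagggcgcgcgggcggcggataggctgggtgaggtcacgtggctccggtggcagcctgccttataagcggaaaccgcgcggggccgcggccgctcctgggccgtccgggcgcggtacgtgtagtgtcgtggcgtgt
Insig2, chr1:121332590-121332839, minus strand: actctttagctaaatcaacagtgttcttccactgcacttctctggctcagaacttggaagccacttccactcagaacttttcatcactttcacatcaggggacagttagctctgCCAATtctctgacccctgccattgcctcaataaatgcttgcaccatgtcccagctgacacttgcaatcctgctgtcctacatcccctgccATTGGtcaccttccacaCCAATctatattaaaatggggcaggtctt

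Of the 32 listed genes 25 had promoter windows, 33 in all, and Fdps, Fdft1, Sqle, Stard4, Scd1, Scd2 and Fads1 had none there. Matches were searched on both strands in the 250 bases, over all windows of a gene. CCAAT was held by 19 of the 25 genes, beside 37.5% of the 27025 genes of the table. TCACNCCAC was held by 1, Hmgcs1, where it lay 137 to 129 bases before the start, beside 1.22% of all genes. The Sp1 box GGGCGG was held by 21, beside 35.4%, and the E-box CACGTG by 5, beside 6.86%. In the members' windows 0 matches overlapped a match of another motif. Insig1 and Insig2 both held CCAAT or its complement, with 1 match in Insig1 and 3 in the Insig2 window shown. In these windows the box did not separate the pair. The windows of other Insig2 starts held no CCAAT match, and which start these cells use was not tested. Idi1 had its 2 matches within 45 bases of the start. A match is a run of letters, and no match says only that these letters are not in the window.

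In fatty acid synthesis all 8 genes were lower at day 28 than at day 6, with a median of -0.50 and 0 at 2-fold on the main probe sets. Elovl6, which lengthens palmitate to stearate, had 27.55, 26.61 and 26.62 and was 1.91-fold lower, with -1.17 on its other probe set above the background. Acaca, which makes malonyl-CoA, had 27.22, 26.71 and 26.60 and was 1.54-fold lower. Fasn, which builds palmitate from it, had 28.49, 28.37 and 27.90, a difference of -0.58 just short of 1.5-fold. Acly, which supplies cytosolic acetyl-CoA from citrate, had 28.01, 27.79 and 27.58, and its 5 probe sets above the background were all lower.

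Both Scd genes depended on the probe set. Scd1 and Scd2, which put the first double bond into saturated fatty acids, differed by -0.21 and -0.29 on their main probe sets and by -0.95 and -0.98 on a dimmer one. The main probe set of Scd2 read 30.15, 30.18 and 29.87, close to the highest value of any probe set, 30.59. The dimmer one read 28.08, 27.85 and 27.10. Fads2, the first desaturase of polyunsaturated fatty acids, had 27.01, 27.06 and 26.45, and its 3 probe sets gave -0.89 to -0.56. Fads1, the desaturase after it, had 28.88, 29.01 and 28.84, a difference of -0.04.

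At day 14 against day 6 the mevalonate genes stood lowest. All 6 were already lower at day 14, with a median of -0.62. The sterol arm had a median of -0.24, fatty acid synthesis -0.06, the control genes 0.15, and all 11489 genes described -0.03. With probe sets averaged the sterol arm had -0.17 and fatty acid synthesis -0.25, so the order of these 2 arms turned. Idi1 (2.67-fold lower) and Fdps (2.10-fold lower) were the 2 members beyond 2-fold, beside 3.88% of all genes. At 1.5-fold Pmvk, Cyp51, Msmo1 and Elovl6 joined them, making 6 of 31, beside 14.2% of all genes, a share near that background. No member was 1.5-fold higher at day 14, beside 13.6% of all genes, or 2-fold higher, beside 5.47%. The shift to equal reference genes moved every gene by -0.29 here. With it 14 members were 1.5-fold lower, beside 30.0% of all genes, and 4 were 2-fold lower, beside 9.89%, and the median of the control genes turned negative, to -0.14. Over all genes, 1136 were then 2-fold lower and 375 higher, and with equal hybridization controls 608 and 540, against 446 and 629 as deposited.

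Day 28 against day 14 was lower for 27 of 31 members, with a median of -0.32 beside 0.04 over 11545 genes. The control genes had the lowest median, -0.45, followed by the sterol arm at -0.32, where all 11 genes were lower, the mevalonate arm at -0.27 and fatty acid synthesis at -0.21. At 1.5-fold 4 members were lower, beside 4.35% of all genes, and 0 higher, beside 7.60%. These were Insig1 (1.69-fold lower), Cyp51 (1.59-fold), Stard4 (1.57-fold) and Fads2 (1.53-fold). None was 2-fold lower, beside 1.44%, or 2-fold higher, beside 2.21%. On its 2 other probe sets Fads2 gave -0.44 and -0.23. With equal reference genes 2 members were 1.5-fold lower, beside 3.40% of all genes, and 8 of the 11 sterol genes were lower.

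Across both steps 19 of 31 members were lower each time, beside 18.4% of the 11702 genes above the background on any array, and 1, Insig2, was higher each time, beside 21.2%. Of the 19, 10 had the larger difference in the first step on their main probe sets, with 50.0% to 89.4% of the whole by day 14, and 9 in the second, with 4.06% to 49.3% by day 14. Where a gene had several probe sets above the background on all arrays, this order often depended on the probe set. All of them gave the larger first step for Idi1, Hmgcs1, Fdft1 and Lss, 4 of the 6 such genes in the first class, but not for Acly and Hsd17b7. In the second class 1 of 5 held, Srebf2, and Cyp51, Sc5d, Scd1 and Stard4 did not. Insig1, Fads2, Srebf1, Dhcr7, Tm7sf2, Scd2, Fads1 and Scap, 8 in all, were higher at day 14 than at day 6 and then lower at day 28. With equal reference genes 7 of these 8, all but Srebf1, were already lower at day 14, and with equal hybridization controls 2 were, Fads2 and Scd2. The other probe sets of Fads2 gave -0.19 and -0.66 at day 14 and a dimmer one of Scd2 gave -0.23. The day 14 value enters both steps, once added and once subtracted, so its error pushes them apart. On its other probe sets Insig2 differed by 0.16 and -0.02 in the second step.

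**Figure D3:**
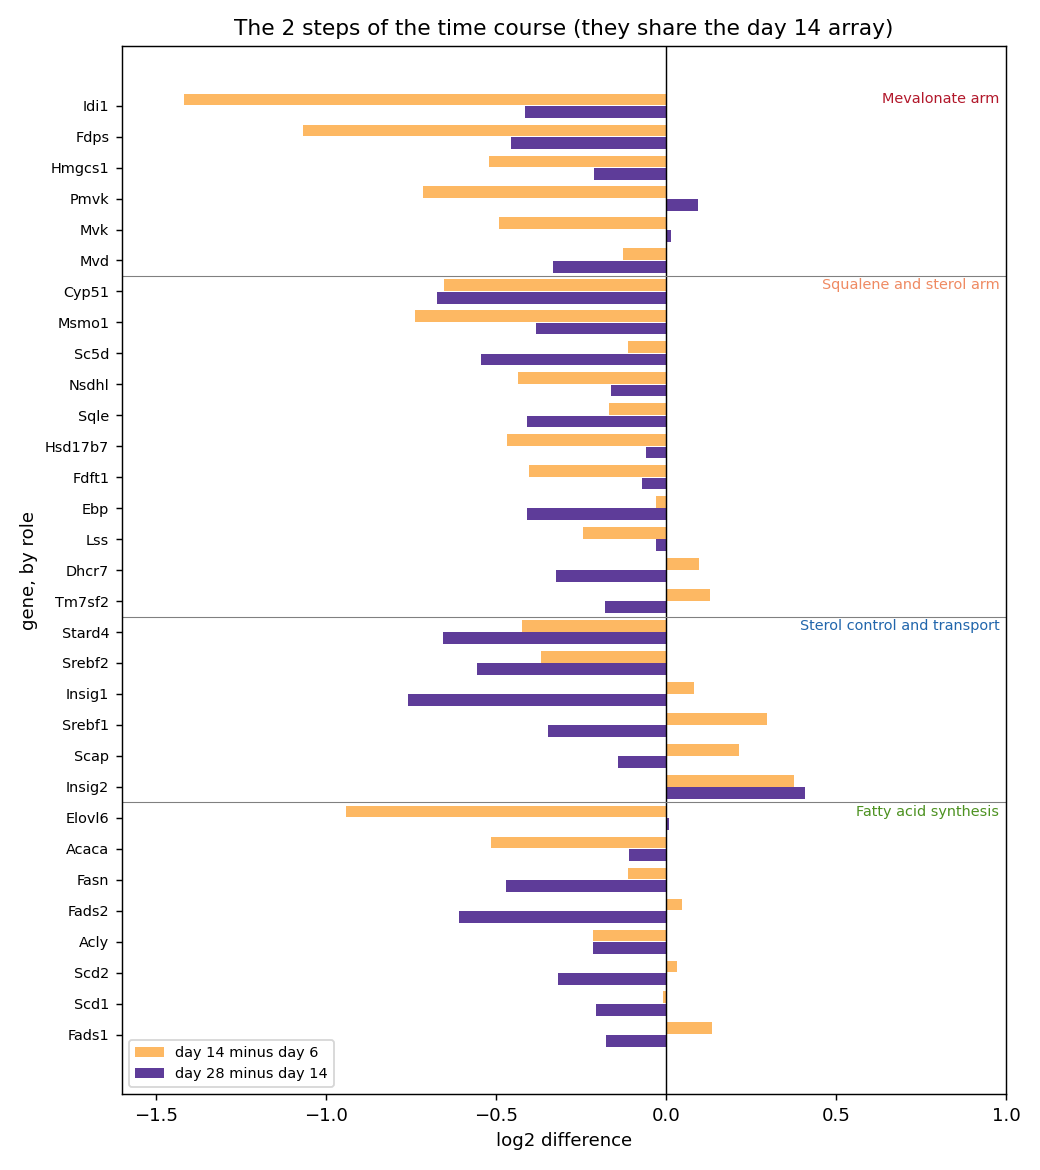
Log2 difference of day 14 minus day 6 (orange) and day 28 minus day 14 (purple) on the horizontal axis for each member on the vertical axis, grouped by role, from 1 array per time point. Idi1 and Fdps have their longer bar in the first step, while Insig1 and Ebp, each with 1 probe set, have their longer bar in the second.

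The other genes of synthesis were mixed. Of 20 described at day 28 against day 6, the median was -0.15, and 12 were lower while 8 were higher. At 2-fold 1 was lower, beside 3.99% of all genes, and 2 were higher, beside 6.66%, both near those shares. Tmem97, a sterol-responsive membrane protein gene, had 26.57, 25.56 and 25.14 and was 2.70-fold lower. Acss2, which makes acetyl-CoA from acetate, had 24.26, 24.29 and 25.95 and was 3.21-fold higher, nearly all of it after day 14. Lpin1, a phosphatidate phosphatase gene of glycerolipid synthesis, had 25.21, 26.49 and 26.26 and was 2.07-fold higher.

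The branch that uses isoprenoids for other ends did not share the differences of Idi1 and Fdps in size. Its 9 measured genes had a median of -0.06, beside -0.56 for the members, with 6 lower and 3 higher. At 2-fold 0 were lower, beside 3.99% of all genes, and 0 higher, beside 6.66%. At 1.5-fold 1 was lower, beside 12.1%. With equal reference genes the median was -0.27, and 8 of 9 were lower, 3 of them by 1.5-fold, beside 21.5%. The farnesyltransferase genes Fnta (27.53, 27.95 and 27.66) and Fntb (24.12, 23.60 and 23.93) differed by 0.13 and -0.19. Ggps1, which makes the longer geranylgeranyl diphosphate, had 25.74, 25.80 and 25.20, a difference of -0.54. Nus1, a subunit of the enzyme for dolichol chains, had the lowest difference of the branch at -0.77.

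Genes of sterol uptake, storage and export were on the other side of 0. Of 11 described 9 were higher at day 28 than at day 6, 6 of them by 1.5-fold, beside 16.0% of all genes, with a median of 0.66. The 9 include Ch25h (22.64 at day 6 and 23.31 at day 28) and Nr1h3 (22.69 and 23.01). Both were below the background at day 6 and were described only through the day 28 array. Ch25h is also among the 6. With equal reference genes 9 were still higher, 3 by 1.5-fold, beside 10.1%, and 1 was 1.5-fold lower. Mylip, a ubiquitin ligase for lipoprotein receptors, had 26.88, 28.24 and 28.26 and was 2.61-fold higher. Abca1, which exports cholesterol, had 26.47, 27.69 and 27.28 and was 1.75-fold higher, with its highest value at day 14. Both are known targets of the sterol-sensing LXR receptors, while Abcg1, another such target, differed by -0.22. Npc1, which moves cholesterol out of lysosomes, was 1.61-fold higher, and Scarb1, a lipoprotein receptor gene, was 1.45-fold lower.

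Fatty acid oxidation also lay above 0, with all 12 genes higher at day 28 than at day 6 and a median of 0.42 as deposited. With equal hybridization controls 9 of 12 were higher and with equal reference genes 7 of 12. Cpt1a, the gate for fatty acids into mitochondria, had 25.08, 26.13 and 26.29 and was 2.32-fold higher. At day 14 against day 6 the list had a median of 0.23, beside -0.06 for fatty acid synthesis, although with equal reference genes the oxidation median turned to -0.05.

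Proliferation genes were lower by more than the synthesis genes. All 19 were lower at day 28 than at day 6, 14 of them by 2-fold, beside 3.99% of all genes. Their median was -1.24, beside -0.56 for the members. Mcm5, a helicase subunit of DNA replication, was 3.61-fold lower and Tk1, a thymidine kinase, 3.54-fold lower. Whether the difference of the synthesis genes moves with proliferation was not tested.

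**Figure D4:**
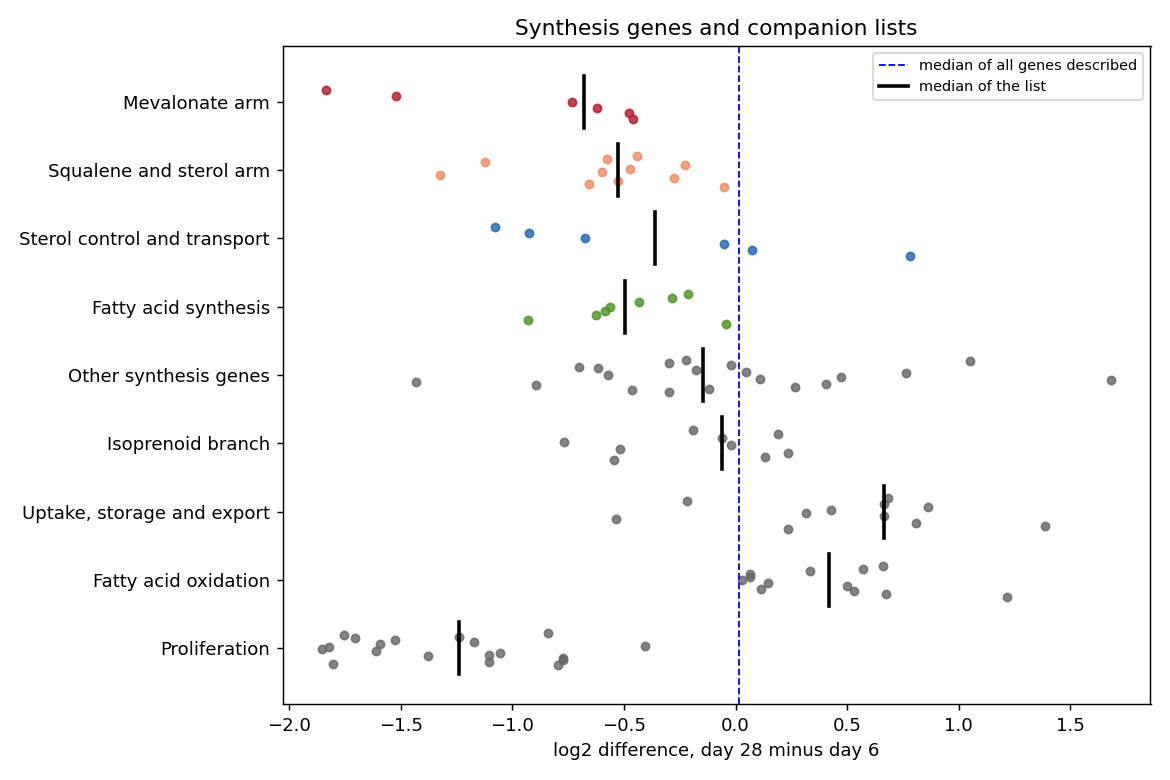
Log2 difference of day 28 minus day 6 (horizontal axis) of each gene in 4 groups of members (coloured) and 5 companion lists (grey) on the vertical axis, with the list median as a black bar and the median of all genes as a dashed line. Synthesis groups have medians from -0.68 to -0.36, proliferation -1.24, and oxidation and the uptake, storage and export list 0.42 and 0.66.

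Some markers of other cells were above the background. Adipocytes, which express fatty acid synthesis genes strongly, had 2, 1 and 2 of 5 markers above the background at days 6, 14 and 28, with a summed level of 25.41, 25.27 and 25.91 beside 25.25, 25.06 and 25.18 if all sat at the background. Adipoq, Cidec and Lep were below it on all arrays, Retn had values of 24.75, 24.75 and 24.67, all above it, and Fabp4 had 23.55, 22.45 and 24.71. Keratinocyte markers had 2 of 5 above it at each time, with Krt14 and Trp63 below, and a summed level of 25.26, 25.15 and 25.27. Fibroblast markers had 4, 3 and 4 of 6, with Lum below throughout, and a summed level of 26.35, 26.94 and 26.76. Of 5 described at day 28 against day 6, 2 were higher, Pdgfra (3.06-fold) and Dcn (2.18-fold). The other 3, Col1a1, Col1a2 and Col3a1, differed by -0.37, -0.40 and -0.08. Dcn was below the background at day 6 (21.92) and near it at day 28 (23.05), so it was described only through the day 28 array. Col1a2 was near the background at day 6 (22.99) and below it at day 28 (22.59), so it was described only through the day 6 array. Col3a1 had 25.25, 26.31 and 25.17, highest at day 14. Leukocyte markers had 4 of 6 at each time, with Ptprc and Itgam below, and a summed level of 26.55, 27.59 and 27.99. Of the 4 described at day 28 against day 6, 2 were higher, Lyz2 (2.74) and Cd68 (0.89). The other 2 were lower, Adgre1 (-0.13) and Csf1r (-0.31). The day 28 value of Cd68 was 4.03-fold that of day 14, and its day 14 value was 2.17-fold lower than that of day 6. The part of these cells in the results was not tested.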

How the data were processed

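Biotin-labelled cRNA from total RNA was hybridised to Affymetrix arrays, per the labels. The authors deposited 1 log2-scale value per probe set and array, with 64 control probe sets among the 45101. The log base, the summarisation method and any added constant are not stated in the labels or the table. A base of 2 was assumed. With it the slope of the hybridization controls was 0.77 to 0.80 per doubling of nominal concentration. Read as a natural log, the slope was 1.10 to 1.15, so these controls do not settle the base. Every fold value and fold count here depends on it. Sorted, the 3 deposited columns are identical, the mark of quantile normalisation by the authors. Gene names came from the platform annotation, in which 34958 probe sets had 1 gene, 932 several and 9211 were not listed, with symbols updated through RefSeq (GRCm38.p6). A gene was described in a comparison when either of its 2 arrays put it above the background. Of 236 list entries 215 were matched. Values below the background were used as measured.

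The members and lists were chosen with earlier results of these data known. Members may all be named, and other genes only from the companion lists, by 2-fold differences or where their list is described. There was 1 array per time point, which limits the precision, so no test was run. The alternatives were 2 other choices of probe set, a 75th percentile background, dim values raised to the background, and 2 scalings. The code for the 2-fold calls was run on simulated data with large added differences. That checks the code and not the results, and it did not cover the 1.5-fold calls. Python 3.11.15, numpy 2.4.6, pandas 2.3.3 and matplotlib 3.10.9 were used.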

Additional observations from a re-analysis of the deposited data

How the results depend on the processing

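No paired analysis was possible because each time point had 1 array. The 24 counts and medians of the members were recomputed under 6 alternatives. With each array shifted to equal reference genes, a shift that moves every gene alike, the members 1.5-fold lower numbered 22 (day 28 against day 6), 14 (day 14 against day 6) and 2 (day 28 against day 14), where the deposited values gave 13, 6 and 4. The same shift left 0 members 1.5-fold higher at day 28 against day 6 and put 4 members 2-fold lower at day 14 against day 6. With probe sets averaged, 0 members were 1.5-fold higher at day 28 against day 6 and 1 was 2-fold lower at day 14 against day 6. That average includes probe sets below the background, such as the second one of Fdps, which takes its day 28 minus day 6 difference to -0.66, and those of Fdft1, which take its day 14 minus day 6 difference to 0.12. All other counts stayed within 1.5 times, and all medians within the spread between probe sets. For the medians, only the choice of probe set could have given another outcome. Every member lay above the background on its main probe set, so the background settings changed no median. Each scaling moved all medians of a comparison by the same shift, which was smaller than that spread. The median of the members ranged over -0.78 to -0.56 (day 28 against day 6), -0.50 to -0.18 (day 14 against day 6) and -0.32 to -0.24 (day 28 against day 14). Of 93 differences of single members, 19 moved by more than that spread when probe sets were averaged and 4 when shared probe sets were avoided. Values near the background limit Mvk and Mvd, and values near the top of the scale limit Scd2.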
